A study of Mus musculus with 696 samples.

Results

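The subunits of oxidative phosphorylation were examined in keratinocytes of mouse tail skin descended from Lrig1-expressing cells, over 2 rounds of wounding. Members were the genes of the deposited table whose symbols name a subunit of complexes I to V, which gave 95 genes of 15652 in all. Of these, 82 were nuclear (39 for complex I, 4 for complex II, 9 for complex III, 12 for complex IV and 18 for complex V) and 13 were encoded by mitochondrial DNA (7 for complex I, 1 for complex III, 3 for complex IV and 2 for complex V). The 8 Ndufaf assembly factors and the pseudogene Cox5b-ps, 9 rows in all, share these letters and were left out, and mt-Cytb is the symbol under which the table holds cytochrome b. Complexes were assigned by symbol, so Ndufa4 and its paralog Ndufa4l2 count for complex I here, although Ndufa4 is found in complex IV. All mice carried Lrig1-EGFP-ires-CreERT2 with Rosa26-fl/STOP/fl-tdTomato on a CBA C57BL/6 mixed background, were adult females, and had received a single dose of hydroxytamoxifen on the tail, so tdTomato marks cells in which the Lrig1 gene was active at that time, and their progeny. Cells were sorted before wounding (0w), 1 week after a first full-thickness wound (1w), 8 weeks after it (8w) and 1 week after a second wound on the same place (9w in the labels). By that schedule the 8w and 9w mice were older, and longer after labelling, than the 0w and 1w mice. No unwounded group of the later age is among these plates. In comparisons of 8w or 9w with 0w or 1w, age and time since labelling cannot be told apart from wounding. The sorted tissue held both the wound bed and follicles away from it, so cells of both places are mixed. The study describes 2 independent experiments with several biological replicates in each, and the labels do not say whether replicates 1 and 2 stand for them. Nor do they tie a plate to single animals, so p-values here measure the spread between plates. The study asked whether such cells keep a trace of the first wound, and the comparisons below ask whether their respiratory chain genes differed between these states.

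Oxidative phosphorylation takes electrons from NADH at complex I and from succinate at complex II, passes them through complex III to oxygen at complex IV, and uses the proton gradient built on the way to make ATP at complex V. It is unusual in needing subunits from both genomes: mitochondrial DNA supplies the membrane core of complexes I, III, IV and V, whereas all of complex II and the remaining subunits are encoded in the nucleus and imported. The mitochondrial genes are transcribed as long precursors and cut apart, so they share their promoters, and their separate levels also depend on how stable each transcript is. Epidermal keratinocytes are known for making much of their ATP by glycolysis.

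Neighbouring mitochondrial genes overlap, which limits how well their reads can be assigned, and the stretch below is shown because 2 members share it. The end of mt-Atp8 (chromosome M, 7766 to 7969) is also the start of mt-Atp6 (7927 to 8607), both on the plus strand of GRCm38 in the GENCODE M21 transcripts, over 43 bases.

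mt-Atp8 and mt-Atp6, shared bases at chrM:7927-7969: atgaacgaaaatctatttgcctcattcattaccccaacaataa

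mt-Nd4l (9877 to 10173) and mt-Nd4 (10167 to 11544) share 7 bases in the same way. The ends of mt-Nd5 (11742 to 13565) and mt-Nd6 (13552 to 14070) overlap by 14 bases on opposite strands, and the library kit does not mark strand. The reads of these pairs can therefore be split between neighbours in ways that the counts do not show. In addition, 7 of the 13 genes (mt-Nd3, mt-Nd4, mt-Nd4l, mt-Co1, mt-Co2, mt-Co3 and mt-Atp6) have a pseudogene transcript of at least 97% identity in GENCODE, and 10 nuclear members have such a copy, among them Atp5l, Uqcrb and Ndufab1. Cox7c has a near-identical copy that is typed as a processed transcript. None of these copies has a row of its own in the analysed table, so their reads cannot be separated from the members' reads.

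On the nuclear side, NRF1 is a transcription factor known for binding promoters of respiratory genes. The 250 bases before the RefSeq start (GRCm38.p6) were available for 66 of the 82 nuclear members, and 13 of them (19.7%) held the NRF1 letters (GCGCA and GCGC with any 1 base between them) on either strand. The same letters were found before 8.55% of the 10868 tested genes with a promoter in that table, and before 4.23% of all 27025 genes in it. The ETS letters CCGGAAG, a core bound by GABP, were found before 12 members (18.2%) and 14.6% of tested genes. A short HIF core, ACGTG, stood before 14 members (21.2%) and 23.9% of tested genes, and the YY1 letters AAGATGGC before 1 member (1.52%) and 2.20% of tested genes. These are matches of letters, 3 of the 13 promoters with the NRF1 letters (Atp5h, Cox6a1 and Sdhd) also hold the ETS letters, and binding was not measured here. The windows of 4 members whose levels are described below are given with the NRF1 letters in capitals, all on the minus strand and read 5′ to 3′ toward the gene.

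Sdha, chr13:74350241-74350490: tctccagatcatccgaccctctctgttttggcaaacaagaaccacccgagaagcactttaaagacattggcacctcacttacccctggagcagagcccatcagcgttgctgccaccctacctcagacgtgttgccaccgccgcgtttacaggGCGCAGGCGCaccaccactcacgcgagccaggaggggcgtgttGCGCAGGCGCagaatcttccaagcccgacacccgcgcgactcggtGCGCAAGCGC

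Sdhd, chr9:50603850-50604099: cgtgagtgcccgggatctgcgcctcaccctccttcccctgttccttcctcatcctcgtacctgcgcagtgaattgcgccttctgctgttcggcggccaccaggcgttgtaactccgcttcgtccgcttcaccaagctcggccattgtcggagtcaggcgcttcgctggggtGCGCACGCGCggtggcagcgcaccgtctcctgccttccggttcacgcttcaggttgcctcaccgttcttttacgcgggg

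Cox6a1, chr5:115348959-115349208: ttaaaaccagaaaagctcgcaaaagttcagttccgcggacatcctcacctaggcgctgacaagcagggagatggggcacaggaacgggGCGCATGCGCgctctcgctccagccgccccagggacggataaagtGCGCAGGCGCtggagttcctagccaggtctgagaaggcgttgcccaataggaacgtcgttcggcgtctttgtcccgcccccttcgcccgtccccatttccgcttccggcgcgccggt

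Atp5g2, chr15:102671048-102671297: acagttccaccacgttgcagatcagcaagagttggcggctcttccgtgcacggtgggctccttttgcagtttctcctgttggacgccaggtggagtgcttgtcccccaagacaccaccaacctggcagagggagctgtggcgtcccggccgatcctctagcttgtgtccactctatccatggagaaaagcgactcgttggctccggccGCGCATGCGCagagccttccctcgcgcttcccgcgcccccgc

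Sdha held 3 such matches, Cox6a1 held 2, and Sdhd and Atp5g2 held 1 each.

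Each time point had 2 plates, labelled replicates 1 and 2, with 79 to 91 cells each and 12293095 to 19760763 estimated counts each. Counts were summed over the cells of a plate, since cells of a plate are not replicates, and levels are given as counts per 1000000 of the TMM-scaled library (CPM), always in the order replicate 1, replicate 2. A sum over a plate does not tell fewer cells of a type from less RNA per cell. The titles also carry a letter that differs between time points and is shared by both plates of a time point, so whatever that letter marks and the time point cannot be told apart. The cells were keratinocytes as labelled: the 6 basal markers summed to between 2391 and 5844 CPM, while the immune markers in the table summed to at most 36.0 CPM, the fibroblast markers to at most 25.4 CPM, the 3 melanocyte markers to at most 76.8 CPM (on 8w replicate 1, of which Mitf made 75.4) and the muscle markers to at most 1.78 CPM. Of the endothelial markers only Pecam1 was counted at a level (109 to 1846 CPM), with Kdr at 0 on 6 of 8 plates. The kind of keratinocyte differed between time points. Suprabasal markers (Krt1, Krt10 and 5 others) summed to 2284 and 3041 CPM at 0w, 42792 and 46170.0 at 1w, 5549.5 and 5196 at 8w, and 15033 and 34711 at 9w. Of these 7, edgeR called 2 as higher at 1w against 0w, where it called 0.527% of all genes. At 9w against 0w it called 1 as higher (all genes 0.267%). Their median log2 fold changes were 2.996 and 2.952. The 6 bulge markers, none of them at 0 on any plate, summed to 1456 and 632 CPM at 0w, 206 and 307 at 1w, 882 and 500.3 at 8w, and 256 and 484 at 9w. Most of that sum at 0w was Postn (1221 and 430.1 CPM), which the study uses as a marker of the infundibulum. The other 5 summed to 236 and 202 CPM at 0w, 112 and 180.2 at 1w, 151 and 179 at 8w, and 113 and 200.3 at 9w. Of all 6 bulge markers, 5 had a lower fitted level at 1w than at 0w and 4 at 9w. The median log2 fold change was -1.60 at 1w and -1.65 at 9w, and edgeR called none of them. At an unadjusted edgeR p below 0.05, 3 were lower (all genes 6.01%) and 1 higher (all genes 5.45%) at 1w. At 9w, 4 were lower (all genes 5.73%) and 1 higher (all genes 6.82%). DESeq2 called Lgr5 and Postn as lower and Krt24 as higher at both times, and Cd34 as lower at 9w. It called 5.28% of all genes at 1w and 4.97% at 9w against 0w. Lgr5, a bulge stem cell gene, stood at 81.8 and 66.9 CPM at 0w, 5.43 and 9.67 at 1w, 35.7 and 39.8 at 8w, and 6.65 and 15.3 at 9w, while Krt24 was higher on all 1w and 9w plates than at 0w. The median fold change of the bulge list was thus below 0 at 1w and 9w against 0w, and it was at 8w too (-0.456). The mitochondrial genes of complex I, given below, had medians of -0.495 at 1w, -0.342 at 8w and -1.275 at 9w. Whether these go together was not tested. The 7 markers of the upper follicle and gland, none of them at 0, summed to 2970.4 and 9518 CPM at 0w, 5299 and 6527 at 1w, 4825 and 9849 at 8w, and 8177 and 7032 at 9w, and their genes did not move together. Scd1, a sebaceous gland gene, stood at 486 and 4632 CPM at 0w, 336 and 138 at 1w, 552 and 2282 at 8w, and 487 and 260.2 at 9w, highest on the second 0w plate, as were Mgst1 and Plin2. Krt79, of the upper follicle, stood at 1114 and 1659.5 CPM at 0w, 3445 and 4837 at 1w, 2886 and 5211 at 8w, and 4199 and 4378 at 9w, lowest on the 0w plates, and Krt17 was lowest on 0w replicate 2 and highest on the 9w plates. What part these shifts play in the results that follow was not tested.

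The mitochondrially encoded genes took the larger share of the counts by far, and that share was lowest at 9w on both plates. As a share of all counts of a plate, the 13 genes held 24.6 and 29.7% at 0w, 22.9 and 25.2 at 1w, 23.1 and 25.3 at 8w, and 18.4 and 18.7 at 9w, which gives 27.1 ± 3.61% at 0w, 24.0 ± 1.63% at 1w, 24.2 ± 1.56% at 8w and 18.5 ± 0.212% at 9w (mean ± SD, n = 2 plates each). Both 9w plates lay below the other 6 plates, whereas the ranges of 0w, 1w and 8w overlapped. The share of the 82 nuclear genes was 1.16 and 1.64% at 0w, 1.30 and 1.05 at 1w, 1.16 and 1.13 at 8w, and 1.27 and 0.926 at 9w, with 9w replicate 2 lowest, 0w replicate 2 highest, and no time point apart from the others. The ratio of mitochondrial to nuclear subunit counts was 21.1 and 18.1 at 0w, 17.6 and 24.1 at 1w, 19.9 and 22.3 at 8w, and 14.5 and 20.2 at 9w, and here too the time points overlapped. Within single cells the median mitochondrial share was 22.7 and 30.7% at 0w, 17.9 and 23.9 at 1w, 18.2 and 22.1 at 8w, and 14.3 and 13.0 at 9w, again lowest on the 9w plates. The study removed cells with a high mitochondrial share, and the highest share left in the table was 49.4%, so the cells with the most mitochondrial RNA are missing from each of these values.

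**Figure D1:**
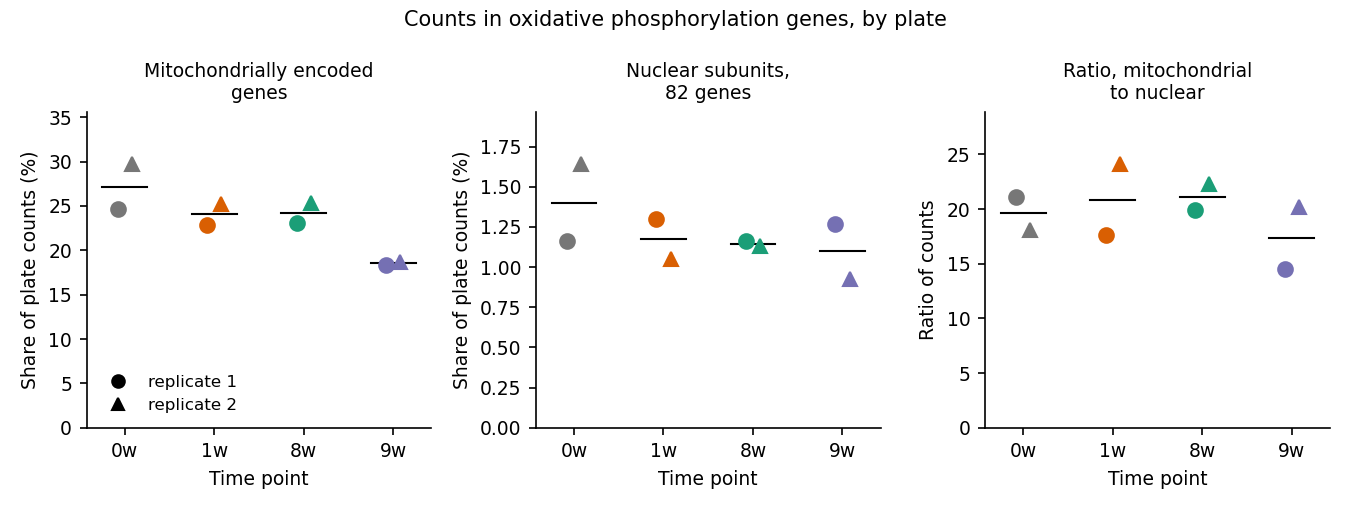
Share of a plate's counts in the 13 mitochondrially encoded genes (left, percent), share in the 82 nuclear subunit genes (middle, percent) and the ratio of the 2 (right), by time point. Circles are replicate 1, triangles replicate 2, and bars the mean of both plates. The 9w plates, at 18.4% and 18.7%, lie below all others in the left panel only.

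Against 0w, all 13 mitochondrial genes had a lower fitted level at 9w, with a median log2 fold change of -0.69 and a median standard error of 0.48, while the median over all 13853 tested genes was 0.05. No single one of them passed the edgeR test at an adjusted p below 0.05, which 0.267% of all genes did in that contrast. The 7 complex I genes had the lowest median, -1.27. mt-Nd3 (chromosome M, 9459 to 9806) stood at 967 and 2113 CPM at 0w, 561 and 435 at 1w, 1124 and 548 at 8w, and 393 and 416 at 9w. Both 9w plates and both 1w plates lay below both 0w plates, and of the 8w plates replicate 1 was inside the 0w range and replicate 2 below it. The difference at 9w was -1.93 (SE 0.54, edgeR adjusted p = 0.189, unadjusted 0.00489) and at 1w -1.63 (SE 0.53, edgeR adjusted p = 0.237). Leaving out 0w replicate 2 gave -1.28 at 9w and -0.97 at 1w, and leaving out 0w replicate 1 gave -2.42 and -2.12. A single cell held 40.7% of the mt-Nd3 counts on 0w replicate 2 and 42.5% on 9w replicate 2; elsewhere no cell held more than 10.6%. DESeq2, run as an alternative, called mt-Nd3 at 9w (log2 fold change -1.98, DESeq2 adjusted p = 0.0201), in a contrast where it called 4.97% of all genes.

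mt-Nd2 (3914 to 4951), a core membrane subunit of complex I, stood at 2022 and 3433 CPM at 0w, 1387 and 1171 at 1w, 1989 and 2315 at 8w, and 837 and 1378 at 9w. Its 1w and 9w plates all lay below both 0w plates, with a log2 fold change of -1.30 at 9w (SE 0.46, edgeR adjusted p = 0.282) and of -1.09 at 1w (edgeR adjusted p = 0.388). With 0w replicate 2 dropped these were -0.89 and -0.68. mt-Nd1 (2751 to 3707) stood at 9805 and 18769 CPM at 0w, 6087 and 8800.3 at 1w, 9137 and 16002 at 8w, and 4209 and 7598 at 9w. Its 9w plates were below both 0w and both 8w plates, and at every time point replicate 2 was the higher. mt-Nd4l (9877 to 10173), the shortest of the complex I genes, stood at 1477 and 3446 CPM at 0w, 1992 and 2764 at 1w, 1275 and 1724 at 8w, and 689.9 and 1005 at 9w. Its 1w plates lay inside the 0w range, and its 9w plates were below the other 6 plates, with -1.54 against 0w (edgeR adjusted p = 0.265) and -1.49 against 1w (edgeR adjusted p = 0.781). The value against 0w was -0.82 with 0w replicate 2 dropped and -2.06 with 0w replicate 1 dropped. In mt-Nd4 and mt-Nd5 the plates of 0w and 9w overlapped, although each 9w plate was below the 0w plate of the same replicate number. mt-Nd4 (10167 to 11544) had 7449.7 and 10095 CPM at 0w, 5234 and 7212 at 1w, 6909 and 9774 at 8w, and 3517 and 7677 at 9w. mt-Nd5 (11742 to 13565) had 4477 and 6791 CPM at 0w, 3452 and 4823 at 1w, 4814 and 4808 at 8w, and 2190.4 and 4771 at 9w. In both, 9w replicate 2 stood inside the range of the 0w plates and 9w replicate 1 was the lowest plate of all. mt-Nd6 (13552 to 14070) had 494 and 796 CPM at 0w, 538 and 577 at 1w, 475 and 453 at 8w, and 248 and 524 at 9w. Here too each 9w plate was below the 0w plate of its number. mt-Nd6, the single member on the other strand of mitochondrial DNA and known to lack a long poly(A) tail, was the lowest per length of the 13 (1243 CPM per kilobase at 0w, 744 at 9w).

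Of the catalytic core of complex IV, mt-Co1 and mt-Co3 had their highest levels at 1w, while mt-Co2 was lower there than at 0w, and no difference passed the edgeR test. mt-Co1 (5328 to 6872), which holds the site where oxygen is reduced, stood at 43381 and 48826 CPM at 0w, 74253 and 67002 at 1w, 40974 and 44326 at 8w, and 32767 and 37484 at 9w. Its 1w plates were the 2 highest of all 8, and its 9w plates the 2 lowest, with a log2 fold change of 0.62 at 1w against 0w (edgeR adjusted p = 0.588) and -1.01 at 9w against 1w (edgeR adjusted p = 0.781). mt-Co3 (8607 to 9390), the most abundant member on every plate, stood at 71563 and 104516 CPM at 0w, 130639 and 125824 at 1w, 73468 and 86221 at 8w, and 82224 and 59629 at 9w. Here too both 1w plates were above the rest, but the 9w plates straddled the lower 0w plate. mt-Co2 (7013 to 7696), which takes electrons from cytochrome c, did not share that 1w pattern, with 19565 and 20211 CPM at 0w, 16014 and 10863 at 1w, 22133 and 17264 at 8w, and 12124 and 9624 at 9w. Its 1w plates and its 9w plates were below both 0w plates. mt-Cytb (14145 to 15288), the core of complex III, had 10885 and 21406 CPM at 0w, 13263 and 18056 at 1w, 11188 and 18105 at 8w, and 8036 and 12048 at 9w, with the 9w plates below both 1w plates and inside or below the range of 0w and 8w. In complex V, mt-Atp6, which forms part of the proton path, had 33840.4 and 49349 CPM at 0w, 25599.7 and 40589 at 1w, 26327 and 47055 at 8w, and 15803 and 36054 at 9w. mt-Atp8, a short neighbour of it, had 6431 and 9028 CPM at 0w, 4122 and 3547 at 1w, 4886 and 8734 at 8w, and 3563 and 6792 at 9w, and its 1w plates were below both 0w plates (-1.01, SE 0.48, edgeR adjusted p = 0.472). For both genes 9w replicate 1 was below the 0w range and 9w replicate 2 inside it, so the 2 plates of 9w were not alike. In both, and in mt-Cytb, each 9w plate was below the 0w plate of the same replicate number.

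**Figure D2:**
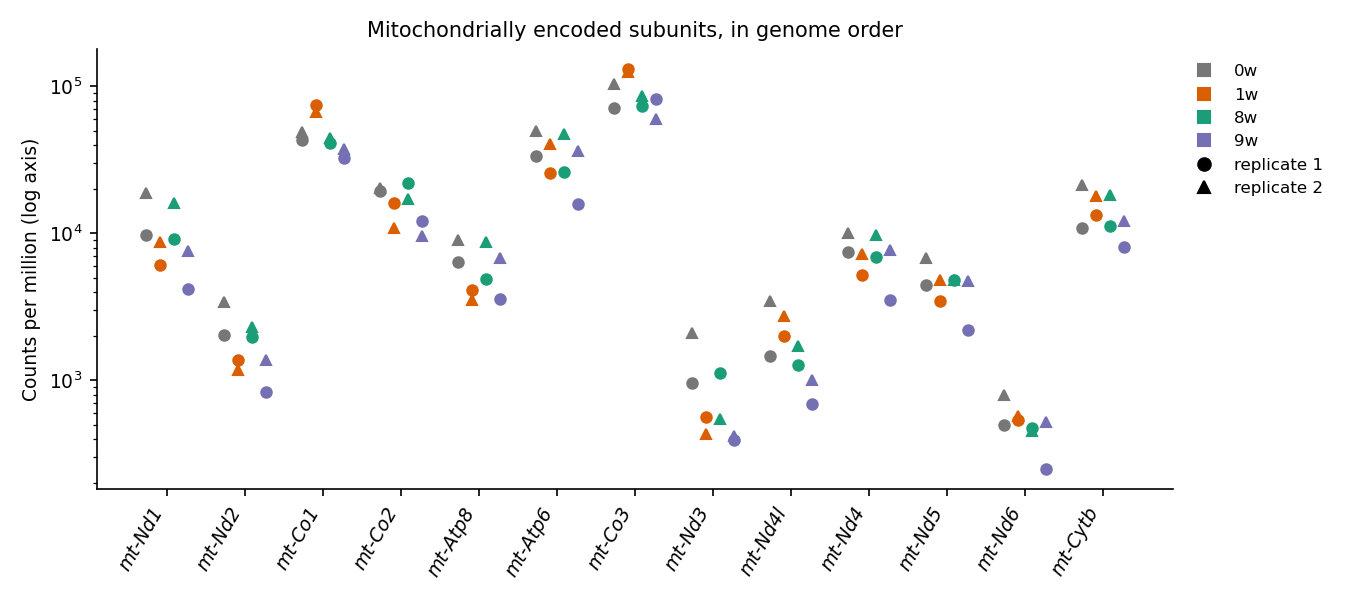
Level of each mitochondrially encoded gene on each plate, in CPM on a log axis, with genes in their order along mitochondrial DNA. Colours are time points, circles replicate 1 and triangles replicate 2. mt-Nd3 and mt-Nd2 are low at 1w and 9w, whereas mt-Co1 and mt-Co3 are highest at 1w.

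The make-up of the mitochondrial counts differed between plates in a way that no scaling of libraries can change, since it is a share of the counts of these 13 genes. mt-Co1 and mt-Co3 together made up 54.1 and 51.3% at 0w, 72.4 and 66.1 at 1w, 55.9 and 50.7 at 8w, and 69.0 and 52.5 at 9w. Both 1w plates and 9w replicate 1 were high, and 9w replicate 2 stood with 0w and 8w. The 7 complex I genes together made up 12.6 and 15.2% at 0w, 6.80 and 8.84 at 1w, 12.6 and 13.8 at 8w, and 7.25 and 12.6 at 9w, low on the same 3 plates. mt-Atp6 and mt-Atp8 together made up 19.0 and 19.5% at 0w, 10.5 and 15.1 at 1w, 15.2 and 21.7 at 8w, and 11.6 and 23.2 at 9w, with the lowest value at 1w replicate 1 and the highest at 9w replicate 2. The 9w plates were close in their total mitochondrial share but not in which genes made it up.

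In each comparison of time points most mitochondrial genes had a lower fitted level at the later one, and edgeR called none of them. At 1w against 0w, 11 of 13 had a lower fitted level (median -0.45), with mt-Co1 and mt-Co3 higher. Summed, the 13 genes stood at 212357 and 298779 CPM at 0w and 283140 and 291663 at 1w, so both 1w plates lay inside the 0w range. At 8w against 0w all 13 had a lower fitted level (median -0.18). At 9w against 1w 12 of 13 did (median -0.33, mt-Atp8 higher), and at 9w against 8w all 13 (median -0.54). The genes are neighbours on precursors that they share, so these counts are not 13 separate pieces of evidence. Plates of the 2 time points did not overlap, with the later one lower, for 6 of 13 at 1w against 0w (46.2%, beside 22.1% of all tested genes), for 1 of 13 at 8w against 0w (7.69%, beside 15.6%), for 6 of 13 at 9w against 0w (46.2%, beside 19.4%), for 6 of 13 at 9w against 1w (46.2%, beside 17.4%) and for 7 of 13 at 9w against 8w (53.8%, beside 16.3%). The change over the second healing (9w minus 8w) less the change over the first (1w minus 0w) had a median of -0.15 over the 13 genes. Its direction was not stable: it ran from -0.63 to 0.32 with 1 plate left out, and was 0.18 on plain library totals. The size of the medians against an earlier time point also rests on single plates. At 1w against 0w the median was -0.125 without 0w replicate 2 and -0.71 without 1w replicate 2. At 9w against 0w it was -1.35 when 9w replicate 2 was left out and -0.46 when 9w replicate 1 was. Leaving out the 0w plates in turn gave -1.01 (replicate 1) and -0.41 (replicate 2). At 8w against 0w it turned to 0.06 without 0w replicate 2. At 9w against 1w it was -0.11 on leaving out 9w replicate 1 and -0.80 on leaving out replicate 2. At 9w against 8w it was -0.26 when 8w replicate 2 was dropped and -1.03 when 9w replicate 2 was. On plain library totals the median at 9w against 1w was -0.02, where the median of all genes stood at 0.43.

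The nuclear subunits were split about evenly between higher and lower levels. Of the 82, 81 passed the filter on low counts, and Cox6b2 did not. At 1w against 0w, 46 of 81 tested nuclear genes had a higher and 35 a lower fitted level (median 0.08), against a median of -0.04 over all tested genes. At 8w against 0w, 38 of 81 tested nuclear genes had a higher and 43 a lower fitted level (median -0.07). At 9w against 0w, 41 of 81 tested nuclear genes had a higher and 40 a lower fitted level (median 0.01). At 9w against 1w, 35 of 81 tested nuclear genes had a higher and 46 a lower fitted level (median -0.03). At 9w against 8w, 43 of 81 tested nuclear genes had a higher and 38 a lower fitted level (median 0.02). A single nuclear gene carried a median standard error of 0.53 on the log2 scale, so that a difference of 2-fold in 1 gene lies within 2 standard errors of none. With edgeR, 0 of the 81 nuclear and 0 of the 13 mitochondrial genes were called in any of the 6 comparisons, where the share of all tested genes called was 0.527% at 1w against 0w, 0% at 8w against 0w, 0.267% at 9w against 0w, 0% at 9w against 1w, 0.00722% at 9w against 8w and 0% for the difference between the healings.

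At an unadjusted edgeR p below 0.05 the counts of members were as follows, each beside the share of all tested genes (percent of 81, of 13 and of 13853 genes). At 1w against 0w, 1 nuclear gene was higher (1.23%, all genes 5.45%) and 2 mitochondrial genes lower (15.4%, all genes 6.01%). At 8w against 0w, 1 nuclear gene was higher (1.23%, all genes 3.81%) and none lower (all genes 2.66%). At 9w against 0w, 4 nuclear genes were higher (4.94%, all genes 6.82%), and 4 nuclear (4.94%) and 4 mitochondrial genes (30.8%) were lower (all genes 5.73%). At 9w against 1w, 2 nuclear genes were higher (2.47%, all genes 3.38%), and 6 nuclear (7.41%) and 2 mitochondrial genes (15.4%) were lower (all genes 2.63%). At 9w against 8w there were 0 members in either direction, with 3.64% of all genes higher and 4.30% lower, and the same held for the difference between the healings (2.40% and 2.94%). DESeq2 called 1 nuclear gene, Ndufa4l2, at 1w (5.28% of all genes), 8w (1.12%) and 9w against 0w, and no member at 9w against 1w (0.325%), at 9w against 8w (2.09%) or for the difference between the healings (0.577%). Nuclear genes whose plates did not overlap numbered 10 higher (12.3%, all genes 23.0%) and 5 lower (6.17%, all genes 22.1%) at 1w against 0w, 12 higher (14.8%, all genes 17.8%) and 7 lower (8.64%, all genes 15.6%) at 8w, and 15 higher (18.5%, all genes 21.5%) and 12 lower (14.8%, all genes 19.4%) at 9w. They numbered 13 higher (16.0%, all genes 19.9%) and 21 lower (25.9%, all genes 17.4%) at 9w against 1w, and 9 higher (11.1%, all genes 16.8%) and 7 lower (8.64%, all genes 16.3%) at 9w against 8w. Other than the 25.9% at 9w against 1w, these shares of nuclear genes were at or below the shares of all genes.

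**Figure D3:**
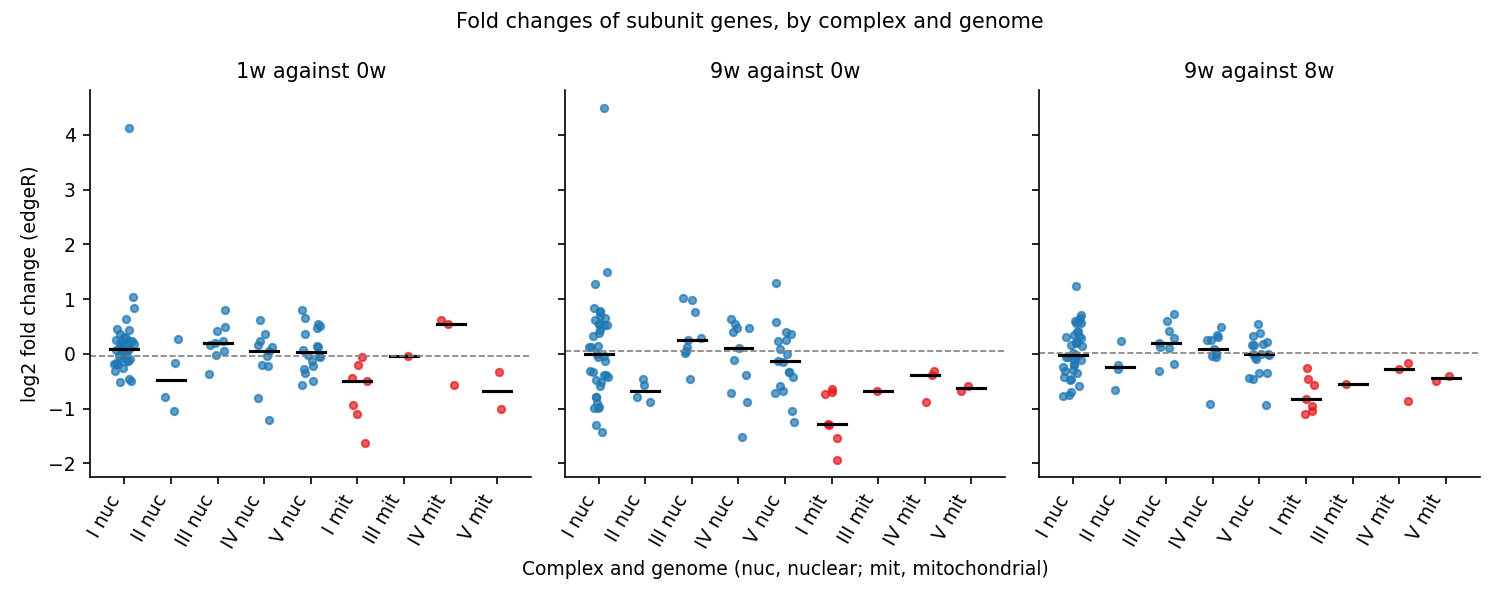
Fitted log2 fold change of each tested subunit gene (points), by complex and genome (blue nuclear, red mitochondrial), with the median of each set (black bar) and of all tested genes (dashed line), in 3 comparisons. Nuclear sets of complexes I, III, IV and V have medians near the dashed line, complex II and the mitochondrial sets lie below it at 9w, and the point far above the others in the panels against 0w is Ndufa4l2.

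The nuclear subunit gene with the highest fold changes against 0w was Ndufa4l2 (chromosome 10, 127514967 to 127517154), a paralog of Ndufa4 known as a target of the hypoxia factor HIF-1 and for lowering complex I activity. It stood at 2.18 and 0.108 CPM at 0w, 26.9 and 13.2 at 1w, 12.5 and 9.52 at 8w, and 34.0 and 17.8 at 9w. All 6 plates taken after wounding were above both 0w plates, and the 9w plates were above the 8w plates. Against 0w the log2 fold change was 4.12 at 1w (SE 1.10, edgeR adjusted p = 0.157), 3.26 at 8w (SE 1.06, edgeR adjusted p = 0.685) and 4.49 at 9w (SE 1.12, edgeR adjusted p = 0.163), so it missed the threshold each time. With the replicate number as a block the 1w difference was called (log2 fold change 4.49, edgeR adjusted p = 0.0473). DESeq2 called all 3, with adjusted p-values of 0.000524, 0.0441 and 0.000159. Without 0w replicate 1 these fold changes were 7.41, 6.51 and 7.79, and without 0w replicate 2 they were 3.18, 2.30 and 3.55. The 3 comparisons share the 0w plates, whose counts were 42 and 2.

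Few cells carried it. Ndufa4l2 had counts in 6 of 88 and 1 of 91 cells at 0w, 20 of 89 and 13 of 79 at 1w, 16 of 85 and 18 of 87 at 8w, and 15 of 86 and 17 of 91 at 9w. After wounding a single cell held between 24.0% and 40.9% of its counts on a plate. Its partner Ndufa4 (chromosome 6, 11900292 to 11907497), named for complex I but found in complex IV, stood at 359 and 914 CPM at 0w, 1172 and 562 at 1w, 424 and 317 at 8w, and 399 and 254 at 9w. A single cell held 46.8% of the Ndufa4 counts on 0w replicate 2. Of the counts of both genes together, Ndufa4l2 made up 0.604 and 0.0118% at 0w, 2.25 and 2.29 at 1w, 2.87 and 2.92 at 8w, and 7.86 and 6.54 at 9w. That share, which does not depend on library scaling, was close between the plates of each time point after wounding and highest at 9w. The second healing less the first had a log2 difference of -2.89 for Ndufa4l2 (SE 1.40, edgeR adjusted p = 0.944). That value ran from -6.13 to -1.93 with 1 plate left out.

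Among the other complex I genes, Ndufa1 (chromosome X, 37187588 to 37191163), a membrane-arm subunit needed for assembly, stood at 84.7 and 169 CPM at 0w, 148 and 119 at 1w, 69.1 and 71.9 at 8w, and 47.2 and 47.2 at 9w. Both 9w plates were below all others, and both 8w plates below 0w and 1w, with a log2 fold change of -1.43 at 9w against 0w (edgeR adjusted p = 0.266) and -0.85 at 8w (edgeR adjusted p = 0.811). With 0w replicate 2 dropped these were -0.86 and -0.30, and with 0w replicate 1 dropped -1.88 and -1.33. A single cell held 38.8% of its counts on 0w replicate 2 and 43.9% on 9w replicate 2. Ndufv1 (chromosome 19, 4007384 to 4012806), the subunit that binds NADH and its flavin, stood at 36.8 and 23.2 CPM at 0w, 21.8 and 20.3 at 1w, 30.4 and 78.6 at 8w, and 70.8 and 75.2 at 9w. Its 9w plates were above both 0w and both 1w plates, with 1.79 against 1w (edgeR adjusted p = 0.781) and 1.28 against 0w (edgeR adjusted p = 0.389). The 8w plates were far from each other, and a single cell held 49.0% of its counts on 8w replicate 2. Ndufab1, the mitochondrial acyl carrier protein, stood at 135 and 347 CPM at 0w, 184 and 167 at 1w, 109 and 225 at 8w, and 103 and 94.0 at 9w, with both 9w plates lowest. Per kilobase of transcript the 38 complex I genes with a length had a median of 62.8 CPM at 0w, 68.4 at 1w, 57.8 at 8w and 59.2 at 9w.

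Ndufb5, an accessory subunit of the membrane arm, stood at 148 and 219 CPM at 0w, 309.9 and 342 at 1w, 155 and 221 at 8w, and 167 and 129 at 9w. Its 1w plates were the 2 highest, with -1.14 at 9w against 1w (unadjusted edgeR p 0.0288, adjusted 0.781) and -1.18 for the second healing less the first (edgeR adjusted p = 0.964). Ndufs4, an accessory subunit known from Leigh syndrome, stood at 61.3 and 133 CPM at 0w, 132 and 99.1 at 1w, 87.8 and 72.2 at 8w, and 49.6 and 48.7 at 9w, lowest on both 9w plates. Ndufb7, also an accessory subunit, stood at 12.3 and 10.5 CPM at 0w, 17.4 and 9.49 at 1w, 18.7 and 20.5 at 8w, and 48.2 and 16.1 at 9w. Its plates at 8w and 9w were above both 0w plates, and 9w replicate 1 was the highest.

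**Figure D4:**
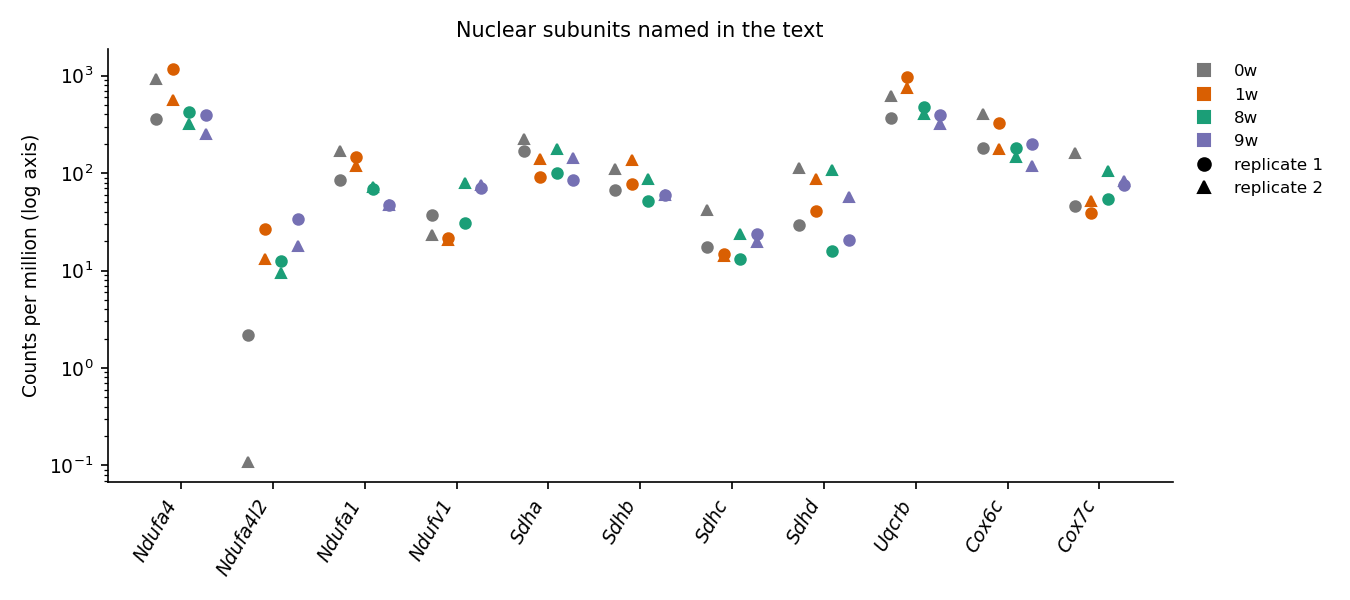
Level of 11 nuclear subunit genes on each plate, in CPM on a log axis. Colours are time points, circles replicate 1 and triangles replicate 2. Ndufa4l2 lies at 2.18 and 0.108 at 0w and at 9.52 or more on all later plates, while Ndufa4 stays between 254 and 1172.

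Complex II, the entry point for electrons from succinate and the only complex without a mitochondrial gene, had the lowest nuclear median at 9w against 0w (-0.68), with all 4 genes at a lower fitted level and 0 called by edgeR or DESeq2, or at an unadjusted edgeR p below 0.05. Sdha, the flavoprotein that oxidises succinate, stood at 169.5 and 225 CPM at 0w, 90.1 and 139 at 1w, 99.3 and 175 at 8w, and 85.6 and 142 at 9w. Sdhb, the iron-sulphur subunit, stood at 66.6 and 110.1 CPM at 0w, 76.6 and 137 at 1w, 51.3 and 87.0 at 8w, and 60.3 and 59.2 at 9w. For both genes the 9w plates lay below the 0w plates, with a log2 fold change of -0.79 for Sdha (edgeR adjusted p = 0.577) and -0.56 for Sdhb (edgeR adjusted p = 0.718). For Sdhb, 0w replicate 1 at 66.6 CPM was close to both 9w plates, so the size of its value rests largely on 0w replicate 2. The membrane anchors Sdhc and Sdhd overlapped between 0w and 9w. Sdhc had 17.4 and 42.2 CPM at 0w, 14.6 and 14.2 at 1w, 13.2 and 23.8 at 8w, and 23.8 and 19.5 at 9w, and its 1w plates were below both 0w plates. Sdhd had 29.1 and 114 CPM at 0w, 40.7 and 86.4 at 1w, 15.9 and 107 at 8w, and 20.4 and 56.8 at 9w, higher on replicate 2 at every time point by 1.08 to 2.74 on the log2 scale. Sdha was also higher on replicate 2 at every time point, but by 0.41 to 0.81.

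In complex III, Uqcrb, a small subunit near the ubiquinone site, stood at 365 and 618 CPM at 0w, 969.7 and 748 at 1w, 479 and 408 at 8w, and 395 and 319 at 9w. Its 1w plates were the 2 highest, 9w replicate 2 was the lowest, and only 0w replicate 1 lay between the 9w plates, with 0.81 at 1w against 0w (edgeR adjusted p = 0.548) and -1.27 at 9w against 1w (edgeR adjusted p = 0.781). Uqcrc1, a core protein, stood at 107 and 59.3 CPM at 0w, 67.8 and 60.8 at 1w, 134 and 127 at 8w, and 147 and 134 at 9w, with both 9w plates above both 0w and both 1w plates. Cyc1, the cytochrome that hands electrons to cytochrome c, stood at 17.4 and 20.3 CPM at 0w, 18.8 and 20.4 at 1w, 14.8 and 31.3 at 8w, and 41.2 and 35.5 at 9w, again with both 9w plates the highest. Uqcrc2 and Uqcrfs1, the second core protein and the Rieske iron-sulphur protein, were instead divided by plate. Uqcrc2 had 107 and 186 CPM at 0w, 137 and 275 at 1w, 57.4 and 231 at 8w, and 57.2 and 294 at 9w. Uqcrfs1 had 75.3 and 166 CPM at 0w, 97.8 and 180.4 at 1w, 70.4 and 212 at 8w, and 51.5 and 198 at 9w. In both, each replicate 2 plate was above each replicate 1 plate. Over the 9 genes the median was 0.26 at 9w against 0w, with 8 of 9 at a higher level, and 0.21 at 1w against 0w, with 7 of 9 at a higher level.

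Complex IV has subunits that exist in tissue forms. Cox4i1, the general form of the largest nuclear subunit, stood at 333 and 238 CPM at 0w, 302 and 189.5 at 1w, 309.7 and 319 at 8w, and 641 and 244 at 9w, where 9w replicate 1 was the highest plate and 9w replicate 2 among the lower ones. Cox6a1, whose promoter is shown above, stood at 34.2 and 41.2 CPM at 0w, 51.4 and 37.0 at 1w, 36.9 and 41.4 at 8w, and 73.8 and 25.5 at 9w. Cox8a, the general form of the smallest subunit, stood at 57.3 and 61.3 CPM at 0w, 75.6 and 47.6 at 1w, 79.3 and 75.5 at 8w, and 123 and 41.8 at 9w. In both genes 9w replicate 1 was again the highest plate, and 9w replicate 2 the lowest. Cox7a2 stood at 101.4 and 163 CPM at 0w, 163 and 94.9 at 1w, 82.7 and 85.0 at 8w, and 95.2 and 65.3 at 9w, with both 8w plates below both 0w plates. Cox6b1 stood at 55.2 and 93.0 CPM at 0w, 116 and 73.4 at 1w, 69.3 and 59.3 at 8w, and 111 and 48.5 at 9w, and here too 9w replicate 2 was the lowest. Cox6b2, known as the testis form, had from 0 to 6 counts on a plate with counts in at most 2 cells of any plate, so no fold was computed. Cox4i2, Cox6a2, Cox7a1, Cox8b and Cox8c were not analysed here. Cox7a2l, which helps to join complexes III and IV, stood at 124 and 103 CPM at 0w, 111 and 142 at 1w, 97.3 and 215 at 8w, and 141 and 176 at 9w, with both 9w plates above both 0w and 1w replicate 1. Cox7b, a small subunit of the membrane part, stood at 217 and 779 CPM at 0w, 368 and 200.0 at 1w, 386 and 269 at 8w, and 164 and 184 at 9w, where 0w replicate 2 was far above the rest and both 9w plates were lowest (-1.52 at 9w against 0w, edgeR adjusted p = 0.353). Cox7c, with 46.0 and 163 CPM at 0w, 38.7 and 51.1 at 1w, 54.4 and 105 at 8w, and 76.2 and 83.0 at 9w, was likewise highest on 0w replicate 2 (-1.22 at 1w against 0w, edgeR adjusted p = 0.516). Cox6c had 180.2 and 403 CPM at 0w, 329.7 and 176 at 1w, 180.3 and 147 at 8w, and 198 and 119 at 9w, with the same plate the highest (-0.83 at 8w against 0w, edgeR adjusted p = 0.834). Without 0w replicate 2 these values were -0.05 for Cox7c, -0.17 for Cox6c and -0.34 for Cox7b. A single cell held 45.1% of the Cox6c counts, 41.6% of the Cox7b counts and 12.9% of the Cox7c counts on that plate. Scd1, Mgst1 and Plin2 were highest there too, and their part in these values was not tested. The 11 tested genes of the complex had a median of 0.11 at 9w against 0w, beside -0.39 for the 3 mitochondrial ones.

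In complex V, the ATP synthase, the members differed in their patterns. Atp5b, the catalytic beta subunit, stood at 447 and 428 CPM at 0w, 405 and 449 at 1w, 435 and 450.3 at 8w, and 547 and 604 at 9w, with both 9w plates the highest and a log2 fold change of 0.40 at 9w against 0w (edgeR adjusted p = 0.746). Atp5d, the delta subunit of the central stalk, stood at 34.9 and 48.9 CPM at 0w, 69.5 and 53.2 at 1w, 51.0 and 88.8 at 8w, and 116 and 88.7 at 9w, and all 6 later plates were above both 0w plates (1.29 at 9w, edgeR adjusted p = 0.326). Atp5l, subunit g of the membrane part and the highest nuclear member per kilobase, stood at 939.8 and 1373 CPM at 0w, 1474 and 815 at 1w, 979 and 579.5 at 8w, and 741 and 387 at 9w, with both 9w plates below both 0w plates. The ring of subunit c comes from 3 genes that encode the same mature protein. Atp5g3 stood at 632 and 1713 CPM at 0w, 961 and 694 at 1w, 516 and 833 at 8w, and 510.2 and 486 at 9w, lowest on the 9w plates (-1.24 against 0w, edgeR adjusted p = 0.386, and -0.36 with 0w replicate 2 left out). Atp5g2 stood at 45.0 and 44.6 CPM at 0w, 39.7 and 37.2 at 1w, 52.0 and 51.9 at 8w, and 69.3 and 46.5 at 9w. Atp5g1 stood at 55.6 and 66.1 CPM at 0w, 69.3 and 47.1 at 1w, 63.8 and 51.2 at 8w, and 106 and 37.8 at 9w, where the 9w plates were the highest and the lowest. Of the counts of the 3 genes, Atp5g3 made up 86.3 and 93.9% at 0w, 89.8 and 89.2 at 1w, 81.7 and 89.0 at 8w, and 74.4 and 85.2 at 9w, lowest on 9w replicate 1. The plates of 9w and 0w did not overlap in that share, but 8w replicate 1 was below 9w replicate 2. Atp5md, a small subunit that joins dimers, stood at 127 and 247 CPM at 0w, 416 and 236 at 1w, 133 and 116 at 8w, and 157 and 91.2 at 9w, with both 1w plates higher than any 8w or 9w plate (-1.39 at 9w against 1w, edgeR adjusted p = 0.781). The inhibitor Atp5if1 was not analysed here.

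The 2 plates of a time point differed in a way that many nuclear subunits shared. At 1w, 8w and 9w the log2 difference of replicate 2 and replicate 1 followed the length of the transcript, with a Spearman rho across 78 genes of 0.48, 0.52 and 0.53, and of -0.08 at 0w. These are correlations across genes of 2 libraries each, and genes are not independent replicates. Uqcr11, a small subunit of complex III, stood at 43.9 and 34.6 CPM at 0w, 67.1 and 25.8 at 1w, 67.0 and 35.7 at 8w, and 121 and 33.9 at 9w. Ndufa11, an accessory subunit of complex I, stood at 65.8 and 35.2 CPM at 0w, 49.7 and 21.6 at 1w, 72.5 and 35.4 at 8w, and 108 and 28.9 at 9w. Both were higher on replicate 1 at all 4 time points. Of the 81 tested nuclear genes, 10 were higher on replicate 1 at all 4 time points and 10 were higher on replicate 2 at all 4, among the latter Uqcrc2, Uqcrfs1, Sdha, Sdhd, Ndufs1 and Atp5a1. Of the mitochondrial genes 5 of 13 (mt-Nd1, mt-Nd4, mt-Nd4l, mt-Cytb and mt-Atp6) were higher on replicate 2 at all 4 time points. Neither these counts nor the correlation with length was computed over all tested genes, so they are not shown to be particular to the subunits. Each time point holds 1 plate of either number.

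**Figure D5:**
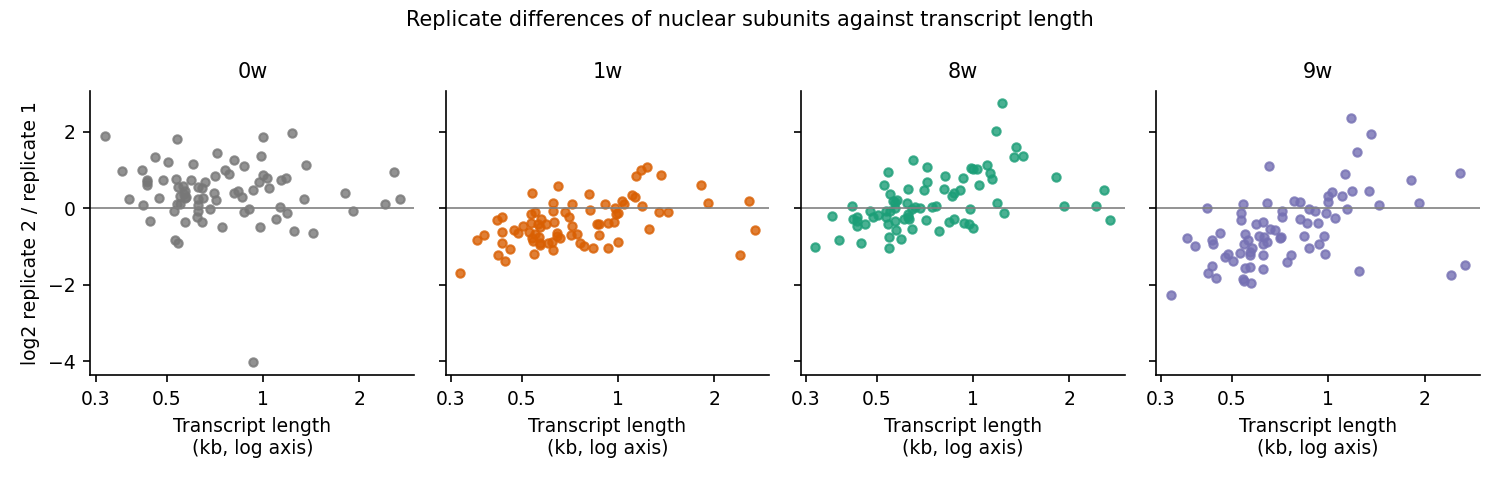
Log2 difference between replicate 2 and replicate 1 of each nuclear subunit gene against its median coding transcript length (kilobases, log axis), for each time point. Longer transcripts are relatively higher on replicate 2 at 1w, 8w and 9w (Spearman rho 0.48, 0.52 and 0.53) but not at 0w (-0.08).

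The genes around the respiratory chain were described from lists. No gene of these lists was called by edgeR in any of the 6 comparisons, so counts below are of fitted direction, at 9w against 0w unless stated. Of the 293 genes tested in these lists, DESeq2 called 5 at 9w against 0w (Gapdh, Eno1 and Pkm higher, Pdss1 and Mpc2 lower), where it called 4.97% of all genes, and 3 at 1w against 0w (Eno1 and Pgk1 higher, Pdss1 lower), where it called 5.28%. It called Fastkd5 as lower at 8w against 0w (1.12%), Eno1 as higher at 9w against 8w (2.09%), and none in the other comparisons. At an unadjusted edgeR p below 0.05 at 9w against 0w, 11 genes of all these lists together were higher (all genes 6.82%) and 10 lower (all genes 5.73%). Of 50 assembly factors for the complexes, 17 had a higher and 33 a lower level (median -0.34). Surf1, needed to build complex IV, stood at 9.29 and 7.01 CPM at 0w, 9.35 and 8.09 at 1w, 7.85 and 8.61 at 8w, and 26.7 and 28.6 at 9w (1.76 at 9w against 0w, edgeR adjusted p = 0.253), with 9w apart from the other time points. Cox17, a copper chaperone of complex IV, was high on both 8w plates, with 17.3 and 34.3 CPM at 0w, 17.1 and 20.6 at 1w, 116 and 82.8 at 8w, and 18.1 and 33.8 at 9w. Ndufaf4, an assembly factor of complex I, had 72.5 and 89.0 CPM at 0w, 37.5 and 40.1 at 1w, 19.7 and 30.9 at 8w, and 41.6 and 26.7 at 9w, with all 6 later plates below both 0w plates. Of 17 genes for electron carriers and coenzyme Q synthesis, 7 had a higher and 10 a lower level (median -0.08). Pdss1, which makes the side chain of coenzyme Q, stood at 26.5 and 36.4 CPM at 0w, 5.56 and 3.75 at 1w, 6.98 and 11.7 at 8w, and 4.41 and 4.64 at 9w, and all 6 later plates were below both 0w plates (-2.79 at 9w against 0w, edgeR adjusted p = 0.143). Coq8b, a kinase-like protein of coenzyme Q synthesis, was highest at 9w, with 5.04 and 4.59 CPM at 0w, 5.62 and 5.04 at 1w, 8.50 and 9.98 at 8w, and 14.5 and 15.2 at 9w (1.62 at 9w against 0w, edgeR adjusted p = 0.322).

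Of the genes that copy and express mitochondrial DNA, 33 were tested, of which 16 had a higher and 17 a lower level (median -0.14). Ssbp1, which binds single-stranded mitochondrial DNA, stood at 55.5 and 191 CPM at 0w, 67.7 and 79.5 at 1w, 46.4 and 84.0 at 8w, and 41.7 and 52.0 at 9w (-1.39 at 9w against 0w, edgeR adjusted p = 0.393), with both 9w plates below both 0w plates. Leaving out 0w replicate 2 brought the Ssbp1 value to -0.26. Fastkd2, an RNA-binding protein of mitochondria, stood at 10.4 and 16.0 CPM at 0w, 23.0 and 28.5 at 1w, 25.8 and 16.4 at 8w, and 32.6 and 34.7 at 9w (1.35 at 9w against 0w, edgeR adjusted p = 0.350). Fastkd5, which takes part in cutting mitochondrial precursor RNA, was low on both 8w plates and on 9w replicate 1, with 14.4 and 21.0 CPM at 0w, 19.7 and 19.6 at 1w, 3.24 and 2.22 at 8w, and 6.09 and 22.1 at 9w. The 78 mitochondrial ribosomal proteins, which translate the 13 transcripts, had median log2 fold changes of 0.22 at 1w and 0.02 at 9w against 0w, and the 77 cytosolic ribosomal proteins had 0.38 and 0.24. Mrpl13 stood at 98.8 and 168 CPM at 0w, 92.6 and 100.1 at 1w, 82.4 and 111 at 8w, and 65.4 and 57.0 at 9w, the mitochondrial ribosomal gene with the lowest p at 9w (-1.12 at 9w against 0w, edgeR adjusted p = 0.363). Rps3 and Rpl39 of the cytosolic ribosome had fitted values in opposite directions, with 0.85 and -0.82 at 9w against 0w (edgeR adjusted p = 0.459 and 0.467). Neither had an unadjusted edgeR p below 0.05.

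Upstream of the chain, of 24 genes of the citric acid cycle and pyruvate dehydrogenase 12 had a higher and 12 a lower level (median -0.01). Mpc2, a subunit of the carrier that brings pyruvate into mitochondria, stood at 358 and 713 CPM at 0w, 222 and 194 at 1w, 171 and 312 at 8w, and 184 and 85.1 at 9w, with all 6 later plates below both 0w plates (-1.99 at 9w against 0w, edgeR adjusted p = 0.193, and -2.69 when 9w replicate 1 is left out). Its partner Mpc1 stood at 107 and 298 CPM at 0w, 63.9 and 86.2 at 1w, 82.2 and 203 at 8w, and 64.9 and 118 at 9w (-1.43 at 1w against 0w, edgeR adjusted p = 0.439), or -0.52 once 0w replicate 2 was dropped. Pdk3, a kinase that switches pyruvate dehydrogenase off, stood at 40.7 and 71.1 CPM at 0w, 65.4 and 59.7 at 1w, 26.4 and 44.2 at 8w, and 19.0 and 16.8 at 9w (-1.64 at 9w against 0w, edgeR adjusted p = 0.246), lowest on both 9w plates. The glycolysis list, which holds the glucose transporter gene Slc2a1 beside enzymes, had the highest median of the pathway lists. In it 13 of 14 genes had a higher level at 9w against 0w (median 1.39) and 12 of 14 at 1w (median 1.15). At 8w against 0w 13 of 14 had a higher level too (median 0.61), with 0 at an unadjusted edgeR p below 0.05. Eno1, or enolase, stood at 62.4 and 36.7 CPM at 0w, 305 and 198 at 1w, 69.4 and 90.9 at 8w, and 291 and 416 at 9w (2.83 at 9w against 0w, edgeR adjusted p = 0.0710), and all plates of 1w and 9w were above those of 0w and 8w. Pkm, the last enzyme of the pathway, stood at 92.6 and 58.7 CPM at 0w, 258 and 175 at 1w, 126 and 122 at 8w, and 309.7 and 482 at 9w (2.39 at 9w against 0w, edgeR adjusted p = 0.0963). At an unadjusted edgeR p below 0.05, 6 of the 14 were higher at 1w (all genes 5.45%) and 8 at 9w (all genes 6.82%). The suprabasal markers given above were also high on the 1w and 9w plates, and their part in these values was not tested. At 9w against 0w the nuclear subunits of oxidative phosphorylation had a median of 0.01 and the mitochondrial ones -0.69. With only cells of at most 20% mitochondrial counts these medians were -0.50 and -0.37. These lists and members share their control plates and a fit, and no test of the difference between lists was made.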

How the data were processed

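Single tdTomato+ cells were sequenced by Smart-seq2, a full-length method without molecular identifiers. Per the labels and the study's methods, the authors made the deposited estimated counts per gene and cell with Salmon 0.13.1 on GRCm38, and removed poor cells and cells high in mitochondrial reads as well as rare genes. Of the deposited values 96.6% were exactly whole (no tolerance, zeros included), and the others were rounded after summing over the cells of a plate (696 cells, 8 plates, 12293095 to 19760763 counts each). All 15652 genes were fitted together with edgeR 4.0.16 (quasi-likelihood, TMM, filterByExpr, R 4.3.3), with time point as the term, over 8 plates. A call is a Benjamini-Hochberg adjusted p below 0.05 over 13853 genes, and CPM are these summed counts per 1000000 of the TMM-scaled total. DESeq2 1.42.0 and other scalings, filters and plate sets were alternatives. Lengths and positions came from GENCODE, promoters from RefSeq. The fit was tested on simulated data.

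Plates of the same number deviated together at every pair of time points (correlation over genes 0.102 to 0.194), so the numbers were taken as pairs in an alternative fit. Members named are all mitochondrial ones, complex II, alternative subunits and the 5 with the lowest p in a comparison, and others were chosen after their values were seen. The members and lists were chosen with earlier results of these data known. Counting intervals were not computed, since reads here are not independent molecules.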

Additional observations from a re-analysis of the deposited data

How the results depend on the processing

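No alternative gave a call for a member other than Ndufa4l2 (1 nuclear gene called at 1w, at 8w and at 9w against 0w with DESeq2, and 1 at 1w against 0w with the replicate number as a block) and mt-Nd3 (1 mitochondrial gene at 9w against 0w with DESeq2). Beyond that, the paired fit with the replicate block changed no call of a member. The nuclear median at 1w against 0w was -0.27 on plain library totals, where the median of all genes was -0.40. With cells of at most 20% mitochondrial counts the nuclear median was -0.41 at 8w and -0.50 at 9w against 0w. The mitochondrial median was then -0.28 and -0.37, so the nuclear one was the lower at both. With all cells the mitochondrial one was the lower at both (-0.18 beside -0.07 at 8w, -0.69 beside 0.01 at 9w). That filter left 40 of 88 and 10 of 91 cells at 0w, 49 of 89 and 31 of 79 at 1w, 49 of 85 and 39 of 87 at 8w, and 60 of 86 and 63 of 91 at 9w, so it selects cells by a quantity that itself differs between time points. With 1 plate left out at a time, nuclear medians ran from -0.18 to 0.36 at 1w, -0.32 to 0.18 at 8w and -0.47 to 0.29 at 9w against 0w, from -0.58 to 0.18 at 9w against 1w, from -0.42 to 0.35 at 9w against 8w and from -0.48 to 0.27 for the difference between the healings. Mitochondrial medians ran from -0.71 to -0.12, -0.56 to 0.06 and -1.35 to -0.41 at 1w, 8w and 9w against 0w, from -0.80 to -0.11 at 9w against 1w, from -1.03 to -0.26 at 9w against 8w and from -0.63 to 0.32 for the difference between the healings, which was 0.18 on plain library totals. Without 9w replicate 1 the nuclear and mitochondrial medians at 9w against 0w were about level, at -0.47 and -0.46. Ndufv1 at 8w against 0w turned to -0.036 without 8w replicate 2 and was at most 1.39 without another plate.

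The number of genes called over the whole table depended on the tool. DESeq2 called 732, 155 and 688 genes at 1w, 8w and 9w against 0w, 45 at 9w against 1w, 290 at 9w against 8w and 80 for the difference between the healings, where edgeR called 73, 0, 37, 0, 1 and 0. The replicate block gave 236, 3, 96, 0, 8 and 3 in the same order. Cells of at most 20% mitochondrial counts gave 22 at 1w and 9 at 9w against 0w and 5 at 9w against 8w. A fit of only the plates compared gave 126, 12 and 0. Cells scaled equally gave 4 at 8w against 0w and 1 for the difference between the healings, and no filter on low counts gave 5 at 9w against 8w. With 1 plate left out the counts ran from 8 to 93, 0 to 2 and 1 to 36 at 1w, 8w and 9w against 0w, 0 to 7 at 9w against 8w and 0 to 2 for the difference between the healings. The cause of these shifts was not tested. A table without the mitochondrial genes gives no mitochondrial value, and a fit of only the plates compared gives no difference between the healings. When a plate is left out, the lone plate of its time point is assumed to vary like the others. With 2 plates a group, an exact permutation test cannot go below p = 0.333.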

Other observations

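Within plates, the share of a cell's counts in the 13 mitochondrial genes and the share of its other counts in the 82 nuclear subunits had a Spearman rho over the 79 to 91 cells of a plate from 0.00 to 0.45 on the 8 plates. The mitochondrial share against the cell's total counts gave rho from 0.09 to 0.56, and against the number of genes counted from -0.14 to 0.21. Against the share of its other counts in the glycolysis list it gave from -0.40 to 0.04, while the nuclear share against glycolysis gave from -0.02 to 0.34. Both nuclear shares have the non-mitochondrial counts of the cell as their denominator, and cells of a plate come from 1 library set, so these values are descriptions only.

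Nearly all members were found in most cells: 76 of the 82 nuclear members and all 13 mitochondrial ones had counts in at least 50% of the cells on every plate, and 2 (Cox6b2 and Atp5o-I) had counts in under 10% on every plate.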
